A study of Mus musculus with 2 samples.

Results

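The zinc finger genes examined here are the mouse *Zfp* genes with a symbol number of 600 or above. A gene was a member where the array annotation gave a probe set a single symbol made of Zfp and such a number, and *Zfp644* was left out by the rule. The rule found 132 of the 18194 genes measured, on 234 of 45101 probe sets. Each gene was read from its brightest probe set. The members ran from *Zfp605* to *Zfp995*, and the number 600 marks no border in biology. The first member differed by -0.68 on the log2 scale between the arrays compared here, and the last gene under the limit, *Zfp599*, by -0.58.

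RNA of 2 embryonic stem cell (ESC) cultures was hybridised, each to 1 Affymetrix mouse expression array. The control was TT2, wild type (WT) for *G9a* (*Ehmt2*) and made from an F1 embryo (C57BL/6 female, CBA male), and the other culture was a *G9a*-deficient line (G9a-KO). It derives from TT2 and lacks the exons that encode the core of the catalytic SET domain. G9a is a methyltransferase for lysine 9 of histone H3. For both samples the labels give the same treatment, 800 nM 4-hydroxytamoxifen for 48 h to delete a conditional *G9a* allele and a further 48 h of culture without it, in medium with LIF, serum replacement and some fetal calf serum. They do not give separately whether WT cells received the drug. The study's methods instead describe an established null line kept on inactivated embryonic fibroblasts with serum and LIF. Each group is thus 1 line, 1 culture and 1 array, so no test was possible and line, culture and genotype cannot be told apart.

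Many proteins of the *Zfp* series carry C2H2 zinc fingers, which read DNA bases, and a large share of the high-numbered ones also carry a KRAB domain. The KRAB domain binds TRIM28 (KAP1), which brings the methyltransferase SETDB1, HP1 proteins and histone deacetylases to the bound site, and this is how ESCs silence many endogenous retroviruses. The genes arose by repeated duplication, lie in clusters and change fast between species, so most have been studied little. Paralogous transcripts resemble each other, and a probe set may also take up RNA of a relative. For 10 members the brightest probe set was of a type that the array maker marks as shared between transcripts (identifiers ending in _s_at or _x_at).

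The promoters of the members at both ends of the range are printed first, because the genes have no common sequence that the symbol rule would guarantee. They are RefSeq sequences of build GRCm38.p6, from 250 bases before to 50 bases after the annotated start, 5′ to 3′ on the gene's strand. Capitals mark every match, on either strand, to 8 short motifs: the E-box CACGTG, E2F GCGGGA, ETS CCGGAAG, GC box GGGCGG, NF-Y CCAAT, YY1 AAGATGGC, NRF1 GCATGCGC and TATA box TATAAA. E2F and GC box letters can overlap. The 3 lowest members were *Zfp709* (chr8:71881818-71882117, + strand), *Zfp719* (chr7:43579336-43579635, + strand) and *Zfp658* (chr7:43562120-43562419, + strand), all with a promoter entry. *Zfp819* (chr7:43606919-43607218, + strand) is added because it lies in the same stretch of chromosome 7 as *Zfp658* and *Zfp719*.
Zfp709: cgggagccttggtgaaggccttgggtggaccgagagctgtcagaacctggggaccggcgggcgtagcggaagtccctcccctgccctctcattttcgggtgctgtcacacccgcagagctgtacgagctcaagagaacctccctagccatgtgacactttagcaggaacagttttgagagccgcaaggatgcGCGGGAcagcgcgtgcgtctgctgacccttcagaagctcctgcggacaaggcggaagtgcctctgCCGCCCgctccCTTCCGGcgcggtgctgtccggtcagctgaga
Zfp719: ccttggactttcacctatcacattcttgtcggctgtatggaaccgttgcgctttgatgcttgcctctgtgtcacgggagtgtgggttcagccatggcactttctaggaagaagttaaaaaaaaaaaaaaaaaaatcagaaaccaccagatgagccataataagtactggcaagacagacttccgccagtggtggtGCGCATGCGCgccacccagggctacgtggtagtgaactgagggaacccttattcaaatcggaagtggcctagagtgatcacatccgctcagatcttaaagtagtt
Zfp658: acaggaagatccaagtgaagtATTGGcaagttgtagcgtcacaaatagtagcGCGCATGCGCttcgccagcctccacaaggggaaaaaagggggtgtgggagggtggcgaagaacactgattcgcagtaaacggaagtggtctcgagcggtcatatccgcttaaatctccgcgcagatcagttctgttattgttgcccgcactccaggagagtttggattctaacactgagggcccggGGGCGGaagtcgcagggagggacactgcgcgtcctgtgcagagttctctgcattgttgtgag
Zfp819: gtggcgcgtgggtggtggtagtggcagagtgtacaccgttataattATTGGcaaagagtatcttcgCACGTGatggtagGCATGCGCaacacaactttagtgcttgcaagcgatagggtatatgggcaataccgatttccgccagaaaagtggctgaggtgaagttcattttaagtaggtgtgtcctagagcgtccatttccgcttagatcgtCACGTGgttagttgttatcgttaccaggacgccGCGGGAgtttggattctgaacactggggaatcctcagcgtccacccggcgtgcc
*Zfp709* held E2F, ETS and GC box letters. The other sequences, from 3 neighbouring genes, each held the NRF1 letters, which 4.29% of all promoters held.

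The 3 highest members with a promoter entry are shown for contrast. They were *Zfp938* (chr10:82241231-82241530, - strand), *Zfp692* (chr11:58306819-58307118, + strand) and *Zfp931* (chr2:178078376-178078675, - strand). The highest member of all, *Zfp934*, had no entry.
Zfp938: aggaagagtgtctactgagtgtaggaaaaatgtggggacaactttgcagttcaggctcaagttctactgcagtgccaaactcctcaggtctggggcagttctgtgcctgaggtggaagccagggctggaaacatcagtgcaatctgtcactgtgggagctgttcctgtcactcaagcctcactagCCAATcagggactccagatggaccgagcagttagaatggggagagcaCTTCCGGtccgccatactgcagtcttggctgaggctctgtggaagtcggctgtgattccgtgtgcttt
Zfp692: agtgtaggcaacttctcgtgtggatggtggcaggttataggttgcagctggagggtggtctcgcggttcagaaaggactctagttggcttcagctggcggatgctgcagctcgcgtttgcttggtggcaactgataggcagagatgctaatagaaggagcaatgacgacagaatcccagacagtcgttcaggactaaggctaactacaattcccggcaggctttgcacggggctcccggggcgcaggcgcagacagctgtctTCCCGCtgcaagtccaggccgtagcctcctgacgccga
Zfp931: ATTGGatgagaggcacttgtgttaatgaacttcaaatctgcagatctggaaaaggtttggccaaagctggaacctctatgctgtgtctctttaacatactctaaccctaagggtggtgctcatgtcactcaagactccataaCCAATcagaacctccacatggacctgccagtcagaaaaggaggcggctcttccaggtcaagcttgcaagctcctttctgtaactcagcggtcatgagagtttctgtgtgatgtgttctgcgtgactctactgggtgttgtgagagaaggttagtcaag
None of these held the NRF1 letters, and neither did *Zfp709*. Only 7 of the 116 members with a promoter entry held them. *Zfp938* held ETS and NF-Y letters, *Zfp692* E2F letters and *Zfp931* NF-Y letters.

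As a group, the members were lower in G9a-KO ESCs. All levels below are log2 values relative to the 75th percentile of the same array, and a difference is G9a-KO minus WT. The median difference of the members was -0.46, which is 1.38-fold lower, against a median of 0.036 over all genes. The middle 50% of members lay between -0.91 and -0.083, and the whole range ran from -2.70 to 1.69. A value below 0 was found for 107 members (81.1%), against 46.6% of all genes. In bulk RNA, fewer cells of a type and less RNA per cell cannot be told apart.

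By a 1.3-fold limit, which the study applied to the G9a-KO array, 73 members (55.3%) were lower, 10 (7.58%) were higher and 49 lay within it. Over all genes, 17.2% were lower and 17.4% were higher. At 2-fold, 28 members (21.2%) were lower and 3 (2.27%) higher, and the shares of all genes were 3.76% and 4.61%. The members' share past the lower limit was thus above that of all genes at both limits, and their share past the upper limit was below it.

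**Figure D1:**
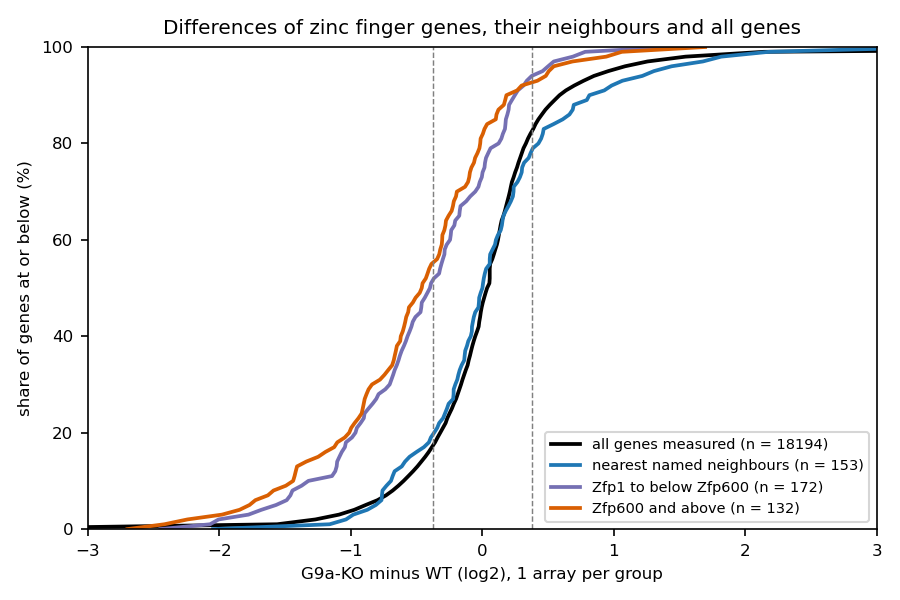
Cumulative share of genes in percent (vertical axis) by log2 difference, G9a-KO minus WT (horizontal axis), for the 132 members, the 172 lower-numbered *Zfp* genes, the 153 nearest named neighbours and all 18194 genes, with dashed lines at 1.3-fold either way. The members' curve and that of the lower-numbered genes lie to the left of the other curves, with medians of -0.46 and -0.40 against 0.036 for all genes.

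The difference was not limited to dim genes. Of the 76 members whose mean level was in the brighter 50% of all genes, 46 (60.5%) were over 1.3-fold lower, against 24.3% of all genes in that range, and their median was -0.49. Of the 56 dimmer members, 27 (48.2%) were lower, against 10.1% of all genes in that range, with a median of -0.31. The rank correlation across members between mean level and difference was -0.010, given as a description, since the members share both arrays. The median level of the members was -0.56 in WT and -1.05 in G9a-KO. Above the 75th percentile of the array lay 47 members in WT and 38 in G9a-KO, with 12 crossing below it and 3 crossing above it. Some folds are not exact, because 21 of the 73 lower members, and 12 of the 28 over 2-fold lower, had a G9a-KO value no higher than the array's median.

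The lower-numbered genes of the same naming series are given for comparison. The 172 measured *Zfp* genes with numbers under 600 had a median of -0.40, 89 (51.7%) were over 1.3-fold lower and 11 were higher. At 2-fold, 33 (19.2%) were lower and 1 was higher. The members' shares of 55.3% and 21.2% were a little higher than these, and the difference between the number ranges was not tested.

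Several members had more than 1 probe set, which gives a second reading of the same RNA. Of the 63 such members, 35 had at least 2 probe sets with a mean above the array's median. All these probe sets lay below 0 for 20 members (57.1%), all above 0 for 5, and on both sides for 10. Among all 5074 genes with several bright probe sets, 29.6% had all of them below 0. Apart from the brightest ones, the members had 44 further bright probe sets, with a median of -0.39, and 31 were below 0.

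The lowest value was that of *Zfp709*, which stood at -0.53 in WT and -3.23 in G9a-KO, a 6.49-fold lower level, while a dimmer second probe set gave a difference of -1.29. *Zfp719* stood at 0.18 in WT and -2.32 in G9a-KO, 5.64-fold lower, while a second probe set gave -0.51. *Zfp658* stood at -1.80 in WT and -4.05 in G9a-KO, 4.74-fold lower. In all 3 the G9a-KO value lay below the array's median of -2.13, so these folds are among the inexact ones. The members *Zfp647* and *Zfp932* had folds that do not rest on such dim values. *Zfp647* stood at 1.20 in WT and -1.04 in G9a-KO, 4.73-fold lower. *Zfp932*, a KRAB zinc finger gene whose product binds endogenous retroviruses, stood at 1.17 in WT and -0.58 in G9a-KO, 3.37-fold lower. *Zfp936* behaved alike, with 1.67 in WT and 0.11 in G9a-KO, 2.95-fold lower.

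The other members among the 12 lowest were between 3.89-fold and 3.06-fold lower. *Zfp788* stood at -0.18 in WT and -2.14 in G9a-KO, but its dimmer probe set differed by only -0.16. *Zfp811* stood at -0.56 and -2.42, and its other probe set gave -1.49. Both probe sets of *Zfp811* were thus well below 0, whereas those of *Zfp788* were far apart. *Zfp942* stood at -0.05 in WT and -1.84 in G9a-KO, while 2 dim probe sets gave 0.99 and 0.14. *Zfp867* stood at -0.12 in WT and -1.75 in G9a-KO. The probe sets of *Zfp942* were on opposite sides of 0, and *Zfp867* had no second probe set. *Zfp946* stood at -1.94 and -3.67, and *Zfp759* at -1.28 and -2.90, where the other probe set of *Zfp759* gave -1.61. In G9a-KO, *Zfp946*, *Zfp759*, *Zfp811* and, only just, *Zfp788* lay below the array's median of -2.13, so their folds are also inexact.

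**Figure D2:**
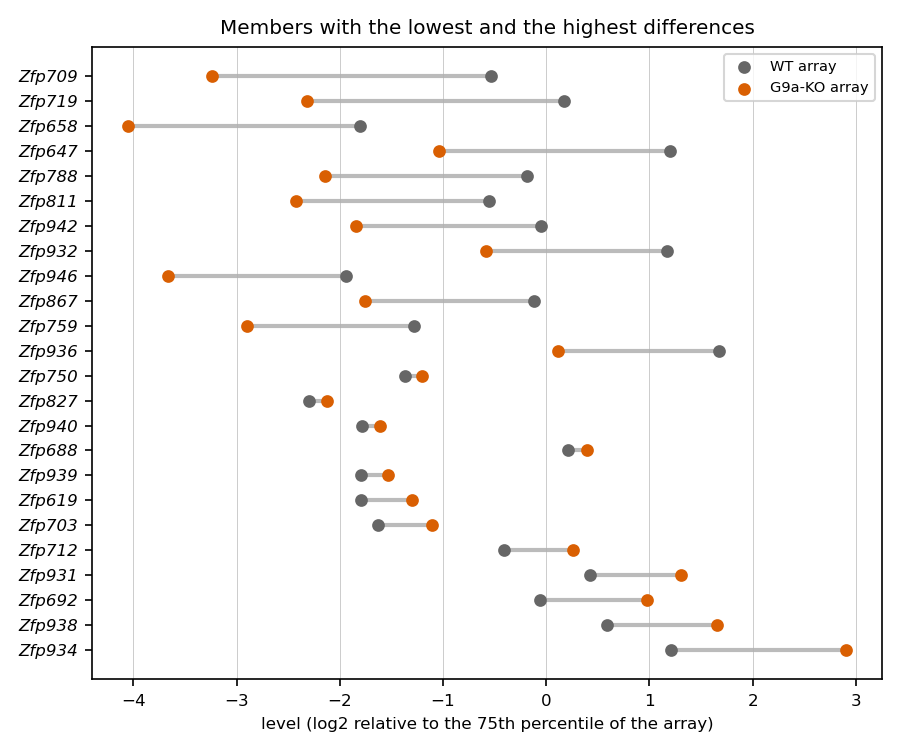
Level of the 12 lowest (top) and 12 highest (bottom) members that met the naming rule, in log2 units against that array's 75th percentile, with a grey point for WT, an orange point for G9a-KO and a bar joining them. The differences run from -2.70 for *Zfp709* to 1.69 for *Zfp934*, and of the 12 highest members 7 lie past 1.3-fold.

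Few members were higher in G9a-KO. *Zfp934* stood at 1.21 in WT and 2.91 in G9a-KO, 3.24-fold higher, and its other probe set gave a difference of 2.14. *Zfp938* stood at 0.58 in WT and 1.66 in G9a-KO, 2.10-fold higher. *Zfp692* stood at -0.06 and 0.97, 2.05-fold higher. These were the only members past 2-fold upward, and *Zfp934* alone had a second probe set. *Zfp931* stood at 0.42 and 1.31, 1.85-fold higher. *Zfp712* stood at -0.41 and 0.26, 1.59-fold higher, and its other probe set gave 0.61. The brightest probe set of each of these 2 genes is of the shared type. The remaining members past 1.3-fold upward were *Zfp991* (0.55, with -0.47 on another probe set), *Zfp703* (0.52), *Zfp619* (0.49), *Zfp773* (0.48, dim on both arrays) and *Zfp944* (0.44, with -1.15 on another bright probe set). The next in order among the 12 highest, *Zfp939* (0.26), *Zfp688* (0.18), *Zfp940* (0.18), *Zfp827* (0.17) and *Zfp750* (0.16), all lay within 1.3-fold.

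Members with a known role were looked at by list. The retroelement list held 5 zinc finger genes whose products bind or silence retroviral sequences, and all 5 were over 1.3-fold lower, with a median of -0.66. Over all genes the share was 17.2%, and over all members it was 55.3%. The lists were chosen with earlier results of these data known, and whether this list differs from the other members was not tested. Beside *Zfp932*, *Zfp819*, a gene active in pluripotent cells, stood at -0.74 in WT and -1.75 in G9a-KO, 2.02-fold lower. *Zfp961* stood at 1.65 and 0.99, 1.58-fold lower, while its other probe set gave 0.097. *Zfp708*, whose product binds a family of retroviral repeats, stood at -1.18 and -1.81, 1.54-fold lower. *Zfp708* and *Zfp961* were thus lower by less than 2-fold, and the second probe set of *Zfp961* showed no lower value. *Zfp809*, whose product recognises the proline tRNA primer binding site of retroviruses, stood at 1.49 and 1.06, 1.35-fold lower, just past the limit.

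A second list held 18 genes with other described roles, of which 16 were measured by a probe set of their own. Of these, 6 (37.5%) were lower, 1 (6.25%) was higher and 9 lay within 1.3-fold, with a median of -0.10. All genes had 17.2% lower and 17.4% higher, and all members had 55.3% lower and 7.58% higher. The lowest of this list was *Zfp711*, an X-linked gene whose product recruits the demethylase PHF8. It stood at -1.68 in WT and -3.09 in G9a-KO, 2.67-fold lower, and a dim second probe set gave 0.20. *Zfp618*, whose product binds the UHRF2 protein, was 1.87-fold lower, and its other probe sets gave -0.050, -0.29 and -0.98. *Zfp711* and *Zfp618* therefore each had probe sets that were far apart. *Zfp768* differed by -0.67, *Zfp655* by -0.60, *Zfp830*, a gene needed in the early embryo, by -0.51 and *Zfp639* by -0.39. The higher gene was *Zfp703*, a corepressor of the NET family, at 1.44-fold, and its paralog *Zfp704* differed by 0.11.

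The members of that list within 1.3-fold covered varied functions. *Zfp622*, which acts in maturation of the large ribosomal subunit, differed by -0.33 and was bright on both arrays. *Zfp668* differed by -0.10, *Zfp608* by -0.097 and *Zfp652*, a corepressor that works with an ETO-family protein, by -0.089. *Zfp746* (PARIS), a substrate of parkin, differed by 0.0079. *Zfp687* differed by 0.11, *Zfp750*, a regulator of epidermal differentiation, by 0.16, and *Zfp827*, which brings NuRD to telomeres, by 0.17. For *Zfp704*, *Zfp827*, *Zfp652* and *Zfp608* the sign turned with the choice of probe set, and for *Zfp746* with the scaling of the arrays. The mean over probe sets was -0.37 for *Zfp704* and -0.23 for *Zfp827*, and the probe set of *Zfp652* with the largest difference gave 0.54.

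**Figure D3:**
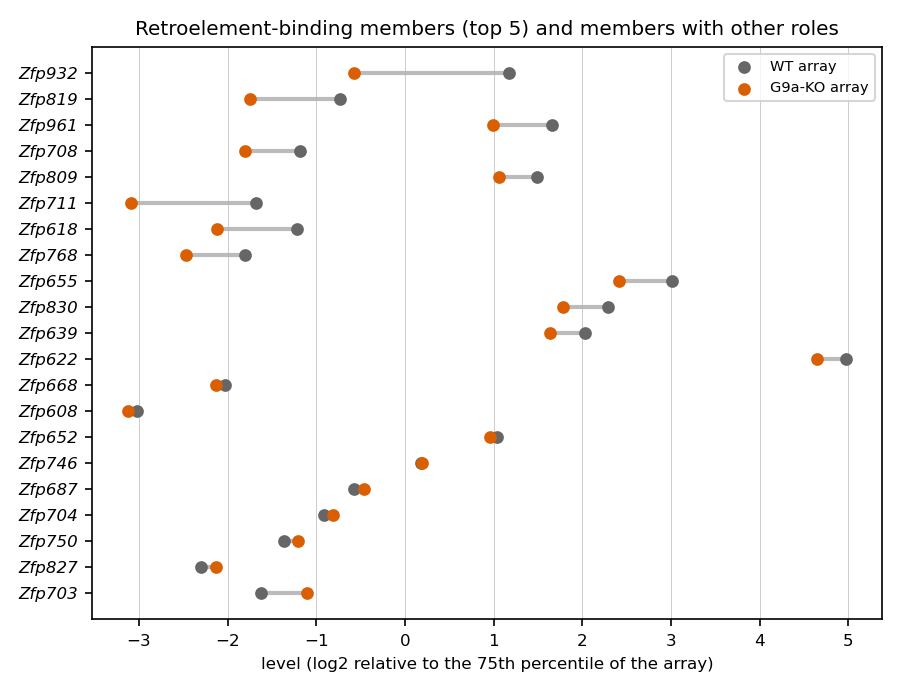
Level of the 5 retroelement-binding members (top) and the 16 members with other roles on each array, in log2 units relative to the array's 75th percentile, with a grey point for WT, an orange point for G9a-KO and a bar joining them. In all 5 retroelement-binding members the G9a-KO point lies to the left of the WT point, while in the others the bars point both ways and many are short.

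The partners that KRAB zinc finger proteins need were read on the same arrays. *Trim28* stood at 5.56 in WT and 5.19 in G9a-KO, a difference of -0.37 that lay just inside 1.3-fold, but it was past it under each other scaling (-0.41 to -0.47), by the mean of probe sets (-0.45) and without those of the shared type (-0.52). *Setdb1* stood at 1.54 and 1.06, a difference of -0.49, and the mean of its probe sets was -0.28, within 1.3-fold. Over the 25 genes of the list of TRIM28 and its corepressors, 9 were over 1.3-fold lower, 4 were higher and 12 lay within, with a median of -0.23. All genes had 17.2% lower and 17.4% higher, and those in the brighter 50% had 24.3% lower. The lowest by the brightest probe set were *Atf7ip2*, at -1.28 (0.66 in WT and -0.63 in G9a-KO), and *Atf7ip*, at -0.87, which encode cofactors of SETDB1. The mean over probe sets was -0.13 for *Atf7ip2*, within 1.3-fold, and -0.39 for *Atf7ip*. *Cbx5*, which encodes an HP1 protein, differed by -0.74, and by -0.43 as the mean of its probe sets. The higher genes were the NuRD gene *Mta3* (0.68, but 0.19 without probe sets of the shared type), *Hdac2* (0.56), *Trim24* (0.55) and *Gatad2b* (0.43).

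Position on the chromosomes was used to ask whether neighbouring members had similar values. The members lay mostly on chromosome 7 (33 members, 18 of them over 1.3-fold lower), chromosome 17 (20, 13 lower) and chromosome 8 (14, 10 lower). A run was defined as 3 or more members with at most 5 other protein-coding genes between neighbours, in the order of the RefSeq annotation. This gave 12 runs with 56 members. Of these 38 (67.9%) were over 1.3-fold lower and 4 higher, with a median of -0.64. Of the 76 members outside runs, 35 (46.1%) were lower and 6 higher, with a median of -0.32. At 2-fold, 17 members in runs and 11 outside were lower, and all 3 higher ones lay outside. In both sets the share of lower members was above the 17.2% of all genes.

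The runs differed from each other. On chromosome 7, all members of the run *Zfp658*, *Zfp719* and *Zfp819* were over 2-fold lower, with a median of -2.25. The run *Zfp709*, *Zfp882*, *Zfp617* and *Zfp961* on chromosome 8 had 4 of 4 members over 1.3-fold lower, with a median of -1.04. A second run on chromosome 8, of *Zfp930*, *Zfp868*, *Zfp869*, *Zfp963* and *Zfp866*, had 5 of 5 lower, with a median of -0.91. In these runs no member stood apart in direction. Of the 6 members of a run on chromosome 17 that holds *Zfp811*, 5 were lower, with a median of -0.99. The longest run, of 13 members on chromosome 17 from *Zfp677* to *Zfp945*, had 7 lower, 1 higher and a median of -0.40. Its members ranged from -1.79 (*Zfp942*) to 0.44 (*Zfp944*), whose other bright probe set gave -1.15. The only run with a median above 0 was that of *Zfp954*, *Zfp773* and *Zfp772* on chromosome 7, where 1 member was higher, none was lower and the median was 0.033.

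**Figure D4:**
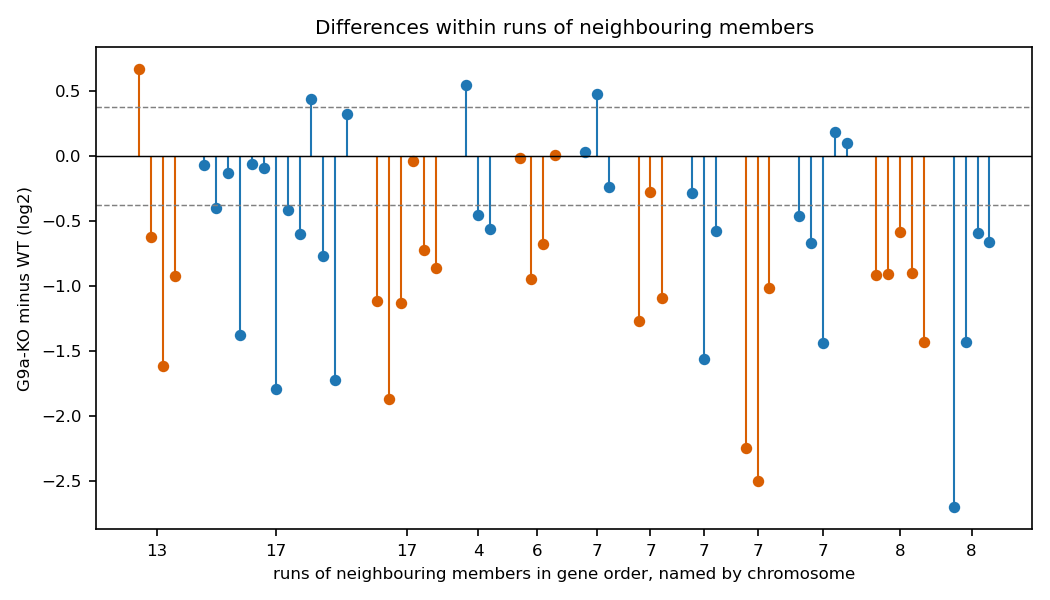
Log2 difference, G9a-KO minus WT (vertical axis), of each member in the 12 runs, drawn in gene order within a run, with runs in alternating colours named by their chromosome and dashed lines at 1.3-fold either way. The members of the run of *Zfp658* and of both chromosome 8 runs all lie below the lower dashed line, and the 13 members of the longest run, on chromosome 17, spread from -1.79 to 0.44.

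The genes next to the members stood near the values of all genes. The nearest measured genes numbered 153 after leaving out, by their symbols, the large zinc finger series, olfactory and vomeronasal receptors and predicted genes, and they had a median of 0.00075. Of these, 30 (19.6%) were over 1.3-fold lower and 33 were higher, against 17.2% and 17.4% of all genes. The symbols let through 5 zinc finger genes under other names and 4 clone-named genes. Without these 9, a step added after seeing the data, 27 of 144 (18.8%) were lower and 32 higher, with a median of 0.0012. The neighbours were those of members both in and outside runs. The median over all members was -0.46, with -0.64 in runs and -0.32 outside them.

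Promoter sequence was compared last. RefSeq promoters were found for 116 of the 132 members (87.9%) and for 14369 measured genes in all. The members' promoters held a median of 13 CpG sites, against 17 for all genes, and a median GC content of 54.3%, against 58.7%. Members with few and with many CpG sites were set side by side, without a test. Of the 41 members with 2 to 9 sites, 21 (51.2%) were over 1.3-fold lower, and their median difference was -0.56. Of the 36 with 10 to 18 sites, 23 (63.9%) were lower, with a median of -0.48. Of the 39 with 19 to 59 sites, 23 (59.0%) were lower, with a median of -0.48. Over all genes, 17.2% were lower. The rank correlation between CpG number and difference was 0.024 across the members, given as a description.

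The widest gap in letters between the members and all genes, in percentage points, was in NF-Y. Its letters were in 55.2% of the members' promoters and in 38.2% of all, and TATA box letters were in 3.45% and 9.85%. Members over 1.3-fold lower (67 with a promoter) were then set beside the other 49 members. The GC box was in 55.2% of the lower and 36.7% of the other members, and in 54.1% of all promoters. ETS letters were in 11.9% and 18.4%, against 13.8% of all, and E2F letters in 23.9% and 24.5%, against 29.8%. NF-Y letters were in 58.2% of the lower and 51.0% of the other members. The share with a GC box was thus near that of all genes in the lower members and below it in the others, with no test of this difference.

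The rarer motifs rest on few genes. Of all 116 members with a promoter, 67 were over 1.3-fold lower, and the counts below were not tested against that share. The NRF1 letters were in 7 members, 6 of them over 1.3-fold lower, including the neighbours *Zfp658*, *Zfp719* and *Zfp819* printed above. The YY1 letters were in 6 members (5.17%), against 3.71% of all promoters, and 5 of these 6 members were lower. The E-box CACGTG, the letters bound by MYC and its partner MAX, the protein at the centre of the study, was in 10.3% of the members and in 9.04% of all genes. Of the 12 members with an E-box, 9 were lower and 2 were higher. The longest chromosome 17 run held 7 of these 12, and outside it 4 of the 5 were lower. Paralogs can have promoter sequence in common, so members with the same letters are not independent of each other.

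**Figure D5:**
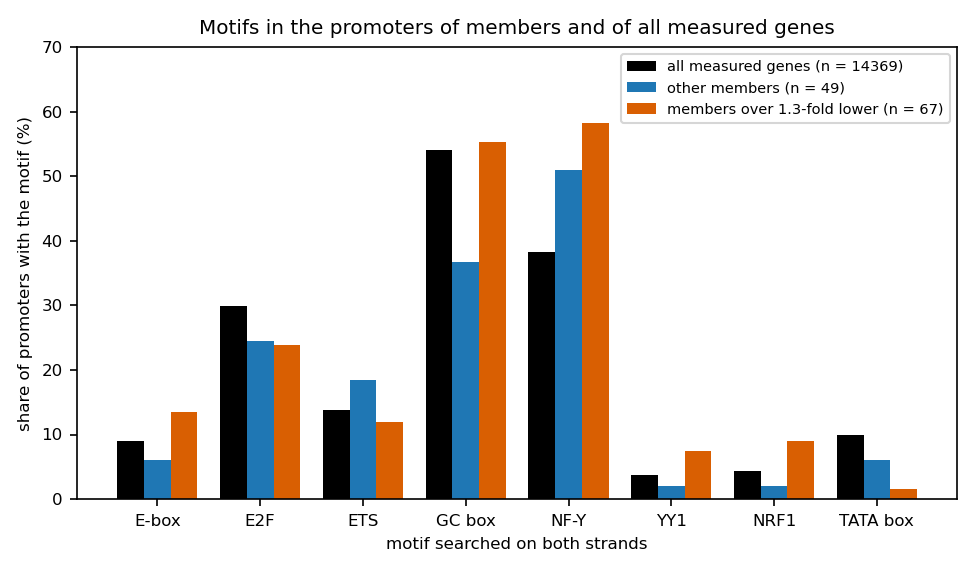
Percent of promoters (vertical axis, from 0) that hold each of the 8 motifs (horizontal axis), for all 14369 measured genes, the 49 other members and the 67 members over 1.3-fold lower. The GC box is in 55.2% of the lower members and 36.7% of the others, and NF-Y letters are more frequent in both sets than the 38.2% of all genes.

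The cells' identity and the targeted gene were checked on the same arrays. The 10 ESC markers all lay above the median on both arrays, with differences from -0.79 (*Zfp42*, which encodes REX1) to 0.61 (*Dppa5a*). *Ehmt2* stood at 2.05 in WT and 0.51 in G9a-KO, 2.90-fold lower. Markers of primitive endoderm, an extraembryonic cell type that ESC cultures can form, differed between the arrays. All 13 were over 2-fold higher in G9a-KO, by 1.50 to 5.82, with a median of 4.04. Of 9 embryonic fibroblast markers measured, 3 (33.3%) were over 1.3-fold higher, against 17.4% of all genes. They were *Col6a3* (1.37), *Lum* (0.98) and *Col1a2* (0.83), and the median of the 9 was 0.16. Of the 9, 6 were not above the median on either array, with *Lum*, *Col1a1* and *Col3a1* among them. The part of these markers' cells in the members' lower values was not tested.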

How the data were processed

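Total RNA (200 ng) of 1 WT and 1 G9a-KO culture was hybridised to Affymetrix arrays. The deposited values are log2 probe set signals, which the authors made with RMA (the submitters' processing notes name R 3.2.1). The package that ran RMA was not given in the sources used here. The method subtracts background, gives both arrays like distributions and summarises probes, so a change in total RNA per cell cannot be seen. As in the study's methods, each array's 75th percentile was subtracted. The study set a 1.3-fold limit for the G9a-KO array and called a gene where at least 1 probe passed its limit. Here the limit was applied to the brightest probe set, and the rule of at least 1 probe set is an alternative.

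Of 45101 probe sets, 34958 had 1 gene symbol, 932 several and 9211 none in the platform annotation, and genes were read from single-symbol probe sets. The brightest probe set by mean represented a gene. The 132 members matched RefSeq by gene ID, and 40 of the 172 RefSeq genes that fit the symbol rule had no probe set of their own. Named were the 12 highest and 12 lowest members with a brightest probe set above the median on at least 1 array and all bright probe sets in one direction, the genes of the lists and members of the runs described. The remaining members past 1.3-fold upward, the other chromosome 2 members and the higher corepressor genes were named after their values were seen. The members and lists were chosen with earlier results of these data known. With 1 array per group there was no test, and precision is limited by the number of arrays. The steps were tested on simulated data, in which planted differences were recovered by the scaling and the choice of probe set. The same difference, 2-fold or more, was planted in every probe set of a gene. This check therefore covers neither the 1.3-fold limit, nor probe sets that disagree, nor dim values. Alternatives were 3 other scalings, a lowess correction (span 0.3), a filter on dim probe sets, leaving out shared-type probe sets, and 3 other ways to combine probe sets. Splits by protein motifs were not run, since no protein table was used here. Python 3.11.15, numpy 2.4.6, pandas 2.3.3, statsmodels 0.14.6 and matplotlib 3.10.9 were used.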

Additional observations from a re-analysis of the deposited data

How the results depend on the processing

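The members' median difference stayed below 0 under every alternative run, from -0.34 (mean of all probe sets) to -0.57 (probe set with the largest difference), and below that of all genes by 0.38 to 0.63. Where a gene had a single value, between 62 and 84 members were over 1.3-fold lower. Centring each array on its median moved all genes by -0.10 and left 1 member over 2-fold higher in place of 3. Where at least 1 probe set past the fold decided, 19 members were over 1.3-fold higher in place of 10, with 9 counted in both directions. Taking only the probe set with the largest difference, 81 members (61.4%) were lower and 14 (10.6%) were higher. The shares of all genes were then 21.0% and 23.3%. Of 370 values of 47 named genes under these alternatives, 19 moved by more than the spread of all differences (a robust SD of 0.32), and the sign turned in 5 named genes whose brightest probe set lay within 1.3-fold (*Zfp608*, *Zfp652*, *Zfp704*, *Zfp746* and *Zfp827*). By the probe set with the largest difference, *Zfp704* (-0.84), *Zfp827* (-0.64) and *Zfp652* (0.54) lay past 1.3-fold with the sign turned. The 47 genes leave out some members named above. Among those left out, *Zfp944* was 0.44 by its brightest probe set and -1.15 by the one with the largest difference. *Zfp991* was 0.55 by its brightest probe set, with -0.47 on another bright one. Medians by KRAB motif were not run. With 1 array per group, no replicate could be left out, and dim values limit the folds.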

Other observations

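Probe sets that name several genes were kept out of the counts above. Of these, 19 named a member of the numbered series, and they covered 12 such genes with no probe set of their own. Past the 1.3-fold limit lay 3 probe sets upward and 4 downward, and 11 differences lay above 0 and 8 below. Over all genes, by the brightest single-symbol probe set, 17.4% were higher, 17.2% were lower and 46.6% lay below 0. Several of the probe sets above 0 belong to 1 gene pair, *Zfp706* and *Gm10193*, so these are not counts of genes. The largest difference was that of a probe set shared by 7 genes of chromosome 2 (*Zfp965*, *Zfp966*, *Zfp967*, *Zfp971*, *Zfp973*, *Gm14440* and *Gm14288*). It stood at -1.96 in WT and 0.41 in G9a-KO, 5.15-fold higher, and was the only shared probe set over 2-fold higher. Of the members on the same chromosome, *Zfp931* was 1.85-fold higher. The others there, *Zfp661* (-0.87), *Zfp770* (-0.42), *Zfp937* (-0.19) and *Zfp972* (-0.023), lay below 0. The only probe set of *Zfp931* names no other gene but is of the type marked as shared between transcripts. The probe set of *Gm3055* and *Zfp781* was 2.34-fold lower, that of *Zfp747*, *Zfp764* and 2 other genes 1.78-fold lower, and that of *Rex2*, *Zfp980* and *Zfp600* 1.41-fold lower, from 5.61 in WT to 5.11 in G9a-KO. The probe sets of *Zfp706* and *Gm10193* gave differences from 0.056 to 0.44.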
